A study of Mus musculus with 4 samples.

Results

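The Id genes Id1, Id2, Id3 and Id4 encode the inhibitors of DNA binding of the mouse, and they were taken by symbol as the 4 members of that family among the 52636 genes of the count matrices. All 4 had counts in each of the 4 libraries. The libraries hold EpCAM-sorted cells of mammary glands from mice 6 months old, read as 3' transcript ends with the 10x Genomics kit v3.1. Every animal had carried pellets of estradiol and progesterone (E2, P4) and was then dosed each day for 4 days by mouth. The Y541S giredestrant library came from Esr1 mutant animals given 30 mg/kg giredestrant, a drug that blocks the estrogen receptor and marks it for breakdown, and the Y541S vehicle library from mutant animals given the vehicle MCT. The WT giredestrant and WT vehicle libraries are the same pair from animals labelled WT at Esr1. Each group is 1 library, the labels do not give the number of animals behind it, and the matrices hold no sequence that could check the genotype. No p-value between conditions is given for that reason, and the intervals of single libraries cover counting error only.

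Id proteins are helix-loop-helix proteins without a DNA-binding region. They pair with E proteins, the broadly expressed partners of tissue-specific helix-loop-helix factors, and keep them from DNA. Id1, Id2 and Id3 are classic targets of bone morphogenetic protein (BMP) signalling, in which ligands bind receptor kinases that phosphorylate SMAD proteins. In the mouse mammary gland Id4 is known for its place in basal cells and in the growth of the duct, and Id2 for its need in the alveolar luminal cells of pregnancy, downstream of RANK.

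In the reference annotation (GRCm38), Id1 lies on chromosome 2 from 152736251 to 152737410 on the plus strand, and Id3 on chromosome 4 from 136143497 to 136145755 on the plus strand. Id2 lies on chromosome 12 from 25093799 to 25097140 on the minus strand, and Id4 on chromosome 13 from 48261228 to 48266026 on the plus strand. The 5' end of Id4 is overlapped on the other strand by A330033J07Rik, which had 17 UMIs over the 4 classes described below, and the overlap ends 3403 bases before the 3' end of Id4. The promoters of Id2, Id3 and Id4 are shown because the members differed so much in the cell class that carried them. Each runs from 250 bases before to 50 after the start of the RefSeq gene model (GRCm38.p6), at chr12:25096043-25096342 on the minus strand, chr4:136143572-136143871 on the plus strand and chr13:48260866-48261165 on the plus strand. Capitals mark GGCGCC, a GC-rich element that SMAD proteins of the BMP branch bind, CCAAT, the box read by NF-Y, and TGACG, which holds a core of the CREB site, each searched on both strands with no overlap between matches.
Id2: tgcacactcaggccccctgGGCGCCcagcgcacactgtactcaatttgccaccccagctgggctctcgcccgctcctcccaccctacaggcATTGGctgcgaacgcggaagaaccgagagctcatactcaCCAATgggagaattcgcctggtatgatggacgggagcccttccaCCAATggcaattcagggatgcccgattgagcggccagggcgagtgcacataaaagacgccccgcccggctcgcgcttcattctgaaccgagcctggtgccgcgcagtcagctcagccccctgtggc
Id3: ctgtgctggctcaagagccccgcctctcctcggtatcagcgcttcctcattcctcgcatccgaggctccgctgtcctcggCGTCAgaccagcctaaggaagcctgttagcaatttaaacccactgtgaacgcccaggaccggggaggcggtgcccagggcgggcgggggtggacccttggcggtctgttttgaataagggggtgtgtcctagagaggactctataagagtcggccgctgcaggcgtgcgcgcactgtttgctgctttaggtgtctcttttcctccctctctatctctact
Id4: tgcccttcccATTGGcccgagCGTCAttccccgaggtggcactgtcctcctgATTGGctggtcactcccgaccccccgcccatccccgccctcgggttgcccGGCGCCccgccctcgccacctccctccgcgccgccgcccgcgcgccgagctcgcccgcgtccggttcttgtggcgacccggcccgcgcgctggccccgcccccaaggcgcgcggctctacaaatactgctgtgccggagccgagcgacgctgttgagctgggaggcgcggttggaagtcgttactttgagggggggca
The Id2 window held 1 GGCGCC and 3 CCAAT, the Id4 window 1 GGCGCC, 2 CCAAT and 1 TGACG, and the Id3 window 1 TGACG. Of 32851 RefSeq promoters of that length, 11.9% held GGCGCC, 37.4% CCAAT and 20.8% TGACG.

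Cells under 1000 UMIs or 500 genes, or above 15% of mitochondrial UMIs, were left out, and 25950 of 30062 remained. Kept cells had a median of 6267 UMIs in the Y541S giredestrant library, 15290 in Y541S vehicle, 21927 in WT giredestrant and 10868 in WT vehicle. Hormone-sensing cells held 10 or more UMIs of Esr1, Prlr, Areg and Foxa1 per 10000, secretory luminal cells 10 or more of Wfdc18, Csn3, Elf5 and Kit, and basal cells 20 or more of Acta2, Myh11, Mylk and Tagln. Hormone-sensing cells were split at 3 Krt14 UMIs per 10000 into Krt14-low and Krt14-high. The Krt14-low class held 1553, 2200, 1162 and 648 cells in the order of libraries above, and the Krt14-high class 1125, 113, 23 and 44. Secretory cells numbered 1472, 1764, 753 and 751, and basal cells 3843, 3116, 1027 and 4918. A cell could meet more than 1 rule, as 267, 291, 157 and 103 cells did, and pairs of libraries shared between 10 and 29 barcodes. The source label reads mature luminal, yet 12904 of the 25950 kept cells met the basal rule. In this class the basal keratin Krt14, which is not in the rule, stood at 2662 to 3558 CPM (UMIs of a gene per 1000000 UMIs summed over a class). Acta2 stood at 5736 to 7319 CPM, but it is a gene of the rule, so a high level follows from the selection.

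Each member had its own pattern over the classes. Id4 was carried by basal cells, Id3 by hormone-sensing and basal cells, and Id2 by secretory and basal cells. Among these 4 classes, Id1 was highest in basal cells in 3 libraries. In the Y541S giredestrant library it stood nearly as high in Krt14-low hormone-sensing cells as in basal cells and highest in Krt14-high ones. Outside the 4 classes, cells that met no class rule held 82.0, 144, 211 and 227 CPM of Id1 in the order of libraries above. Their Id3 was at 236, 353, 306 and 404 CPM. Cells picked by endothelial or fibroblast markers, 19 to 63 per library and type, held 305 to 935 CPM of Id3. Classes were compared over the 4 libraries with edgeR's quasi-likelihood test, with the library as a block, and the p-values measure a spread between libraries that also differ in genotype and treatment.

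**Figure D1:**
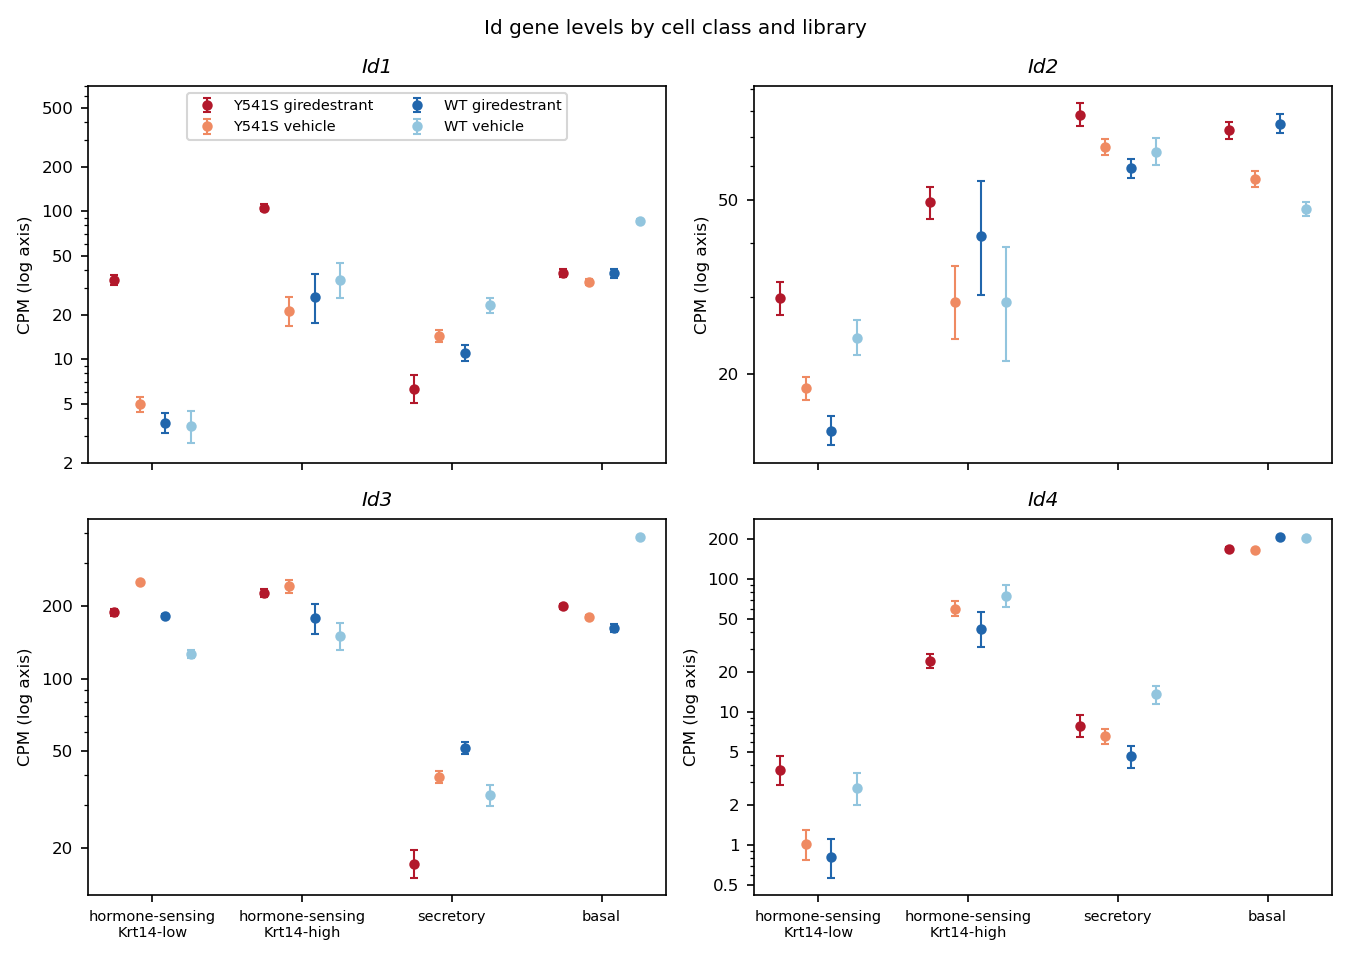
Level of each Id gene in CPM (log axis) in 4 cell classes, with 1 point per library in the order Y541S giredestrant, Y541S vehicle, WT giredestrant and WT vehicle and bars for the exact Poisson 95% interval. Id4 stands at 167 to 207 CPM in the 4 basal sums and at 0.808 to 3.66 CPM in the 4 Krt14-low hormone-sensing sums, and the Y541S giredestrant library stands apart for Id1 in both hormone-sensing classes.

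Id4, the member tied to basal cells, reached 169, 167, 207 and 205 CPM in basal cells of the Y541S giredestrant, Y541S vehicle, WT giredestrant and WT vehicle libraries. It was at 3.66, 1.01, 0.808 and 2.68 CPM in Krt14-low hormone-sensing cells of the same libraries, from 62, 60, 36 and 52 UMIs. The ranges of the 2 classes did not overlap. The log2 fold change of Krt14-low hormone-sensing against basal cells was -6.84 ± 0.50 (SE, n = 4 libraries, edgeR adjusted p = 0.000332), and that of secretory against basal cells was -4.80 ± 0.24 (edgeR adjusted p = 1.97e-05). Id4 in Krt14-low cells was 0.39% to 2.17% of its basal level. Acta2, a contractile gene of basal cells and part of the basal rule, was 0.181% to 0.563% of its own. The share of Krt14-low cells with an Id4 UMI was 1.22%, 0.465%, 0.0870% and 0.785% in the 4 libraries after each cell was thinned to 3000 UMIs, against 33.7% to 40.7% of basal cells. At these counts no change between conditions is read from Id4 in this class, although it enters the counts of members below.

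Id3 was shared by hormone-sensing and basal cells. It was at 188, 250, 182 and 126 CPM in Krt14-low hormone-sensing cells and at 199, 180, 162 and 386 CPM in basal cells, in the same order of libraries. The ranges overlapped, and the class that was higher differed between libraries. Secretory cells held 17.1, 39.1, 51.6 and 33.0 CPM, below both other classes in every library. The Krt14-low hormone-sensing class was above the secretory one by a log2 fold change of 2.61 ± 0.27 (SE, n = 4 libraries, edgeR adjusted p = 0.00224). Much of the secretory Id3 came from cells that met another rule as well: with those left out, secretory cells held 7.18, 18.6, 9.39 and 12.5 CPM. Against basal cells, Krt14-low hormone-sensing cells did not pass the test (log2 fold change -0.33 ± 0.33, edgeR adjusted p = 0.434), and without the WT vehicle library the sign turned to 0.06.

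Id2, which alveolar cells need in pregnancy, was at 78.6, 66.4, 59.2 and 64.7 CPM in secretory cells and 72.3, 56.0, 75.0 and 47.9 CPM in basal cells. Krt14-low hormone-sensing cells held 29.8, 18.6, 14.9 and 24.3 CPM, lower than either class in all 4 libraries. The log2 fold change of Krt14-low hormone-sensing cells was -1.52 ± 0.17 against secretory cells (SE, n = 4 libraries, edgeR adjusted p = 0.00250) and -1.62 ± 0.26 against basal cells (edgeR adjusted p = 0.00382). The difference between secretory and basal cells did not pass the test (log2 fold change -0.08 ± 0.12, edgeR adjusted p = 0.598), and the sign turned without the WT giredestrant library, at 0.05.

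Id1, a target of BMP signalling that is abundant in endothelial cells, was at 38.4, 33.1, 38.1 and 85.5 CPM in basal cells. Secretory cells held 6.27, 14.3, 11.0 and 23.1 CPM, lower than basal cells in all 4 libraries (log2 fold change -2.04 ± 0.21, SE, n = 4 libraries, edgeR adjusted p = 0.000296). Krt14-low hormone-sensing cells held 34.2 CPM in the Y541S giredestrant library, against 4.96, 3.70 and 3.51 CPM in Y541S vehicle, WT giredestrant and WT vehicle. This class thus had 89.2% of the basal level in the Y541S giredestrant library, against 14.98%, 9.72% and 4.10% in the others. Its log2 fold change against basal cells was -2.83 ± 0.71 (SE, n = 4 libraries, edgeR adjusted p = 0.0185), a call that was lost without Y541S vehicle (-2.89) or without WT giredestrant (-2.54). Against secretory cells it was -0.86 ± 0.80 (edgeR adjusted p = 0.430), and without the Y541S giredestrant library it was -1.71 and passed the test. Over all genes, 54.3% passed between Krt14-low hormone-sensing and basal cells, where 3 of the 4 Id genes did, 40.7% against secretory cells, where Id2, Id3 and Id4 did, and 57.8% between secretory and basal cells, where 3 did. Id4 in Krt14-low hormone-sensing against secretory cells was at a log2 fold change of -2.02 ± 0.28 (edgeR adjusted p = 0.00388), and with cells of 1 class rule only it was -1.06 and lost its call (edgeR adjusted p = 0.0828).

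In the Krt14-high hormone-sensing class, Id1 was at 105, 21.1, 26.1 and 34.4 CPM and Id4 at 24.2, 60.2, 42.4 and 75.2 CPM in the same order of libraries. Both stood above the Krt14-low class in all 4 libraries. The log2 fold change of Krt14-high against Krt14-low cells was 2.40 ± 0.24 for Id1 (SE, n = 4 libraries, edgeR adjusted p = 0.00146), a call lost without the library block (2.19), and 4.78 ± 0.50 for Id4 (edgeR adjusted p = 0.00164). Id2 passed narrowly (0.81 ± 0.20, edgeR adjusted p = 0.0424) and lost the call under 7 of 11 alternatives, and Id3 did not pass (0.13 ± 0.12, edgeR adjusted p = 0.551). So 3 of the 4 genes passed where 12.6% of all genes did. The classes were cut on Krt14, a basal keratin, and basal markers moved with the cut: Acta2 was at 648 CPM in Krt14-high cells of the Y541S giredestrant library, against 2511, 1856 and 2321 CPM in the other libraries. Cells that met no other class rule numbered 980 of 1125 in the Y541S giredestrant library, against 22 of 113, 9 of 23 and 15 of 44. The part of basal cell RNA in these differences was not tested.

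Glands with the mutant receptor were compared under giredestrant and vehicle through the pair of Y541S libraries. With 1 library on each side, drug, animals and library cannot be told apart. Id1 gave the largest difference of the members. It was at 34.2 CPM (95% interval 31.5 to 37.1) in Krt14-low hormone-sensing cells of the giredestrant library and at 4.96 CPM (4.41 to 5.56) in those of the vehicle library. The ratios that follow are relative log2 ratios, set against the median gene of the comparison, which itself lay at a log2 ratio of 0.22 in this class and between -0.02 and 0.06 in the other classes. Id1 had a relative log2 ratio of 2.57 (2.36 to 2.78), and 3.05% of the 16993 genes tested were at least as far up. In Krt14-high cells Id1 was at 105 CPM with giredestrant and 21.1 CPM with vehicle, a relative log2 ratio of 2.34 (2.01 to 2.69). After thinning to 3000 UMIs, 8.97% (7.52 to 10.6) of Krt14-low cells held an Id1 UMI with giredestrant, against 1.21% (0.791 to 1.77) with vehicle. The unthinned shares were 17.9% and 6.86%.

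The Id1 difference was also present among hormone-sensing cells in which no Krt14 UMI was counted, which does not show that they lack Krt14. Among cells with no Krt14 UMI after thinning, 8.69% of 1231 held an Id1 UMI in the Y541S giredestrant library, against 1.22% of 2126 in the Y541S vehicle library. Acta2 in the same cells was at 41.4 CPM with giredestrant and 22.7 CPM with vehicle. At 1 Krt14 UMI the shares were 14.5% of 290 and 5.66% of 53 cells, at 2 to 4 UMIs 21.3% of 366 and 6.52% of 46, and at 5 or more 21.0% of 481 and 8.57% of 35. The giredestrant share was above the vehicle share in each step, with intervals that overlapped wherever vehicle cells were few. Over Krt14-low cells with no Krt14 UMI at any depth, a setting chosen after the data were seen, Id1 was at 31.5 CPM with giredestrant and 4.40 CPM with vehicle. A count of 0 says less in the giredestrant cells, since Krt14-low cells had a median of 9300 UMIs with giredestrant and 25546.5 with vehicle. Of the 8 basal markers, 6 were at least 1.5-fold higher and 1 lower with giredestrant in the Krt14-low class. Their sum was at 130 CPM with giredestrant and 42.0 CPM with vehicle, of which Krt14 made up 49.3 and 5.89 CPM, and their part in the result was not tested. Summed over 6 genes, endothelial markers in this class were at 32.1 CPM with giredestrant and 9.90 CPM with vehicle. Cells meeting an endothelial rule, 63 with giredestrant and 19 with vehicle, held 393 and 1526 CPM of Id1. The hormone-sensing genes Areg and Prlr were at 383 and 519 CPM in the giredestrant ones, against 0 and 4.25 CPM with vehicle. These 2 sets of cells were thus not alike in makeup. In Krt14-low cells the endothelial genes Kdr, Cdh5, Emcn and Cldn5 were at 0, 0.295, 0.236 and 0.118 CPM with giredestrant and at 0, 0, 0.118 and 0 CPM with vehicle. Pecam1, which leukocytes and other cells also carry, was at 24.2 CPM with giredestrant and 1.87 CPM with vehicle, and its part was not tested.

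**Figure D2:**
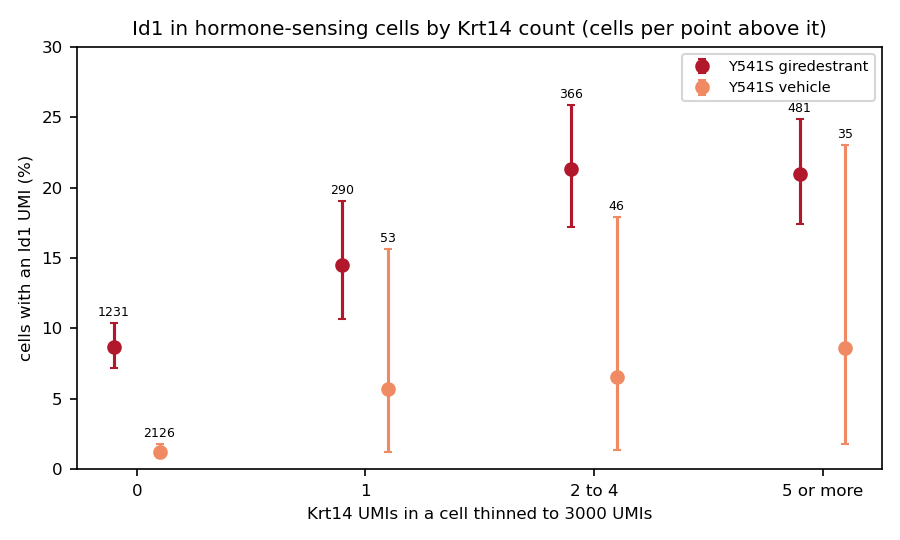
Share of hormone-sensing cells with an Id1 UMI, in percent, by the number of Krt14 UMIs in the cell after thinning to 3000 UMIs, in the Y541S giredestrant library (left point of each pair) and the Y541S vehicle library (right point), with exact binomial 95% intervals and the number of cells above each point. The share without Krt14 is 8.69% with giredestrant and 1.22% with vehicle.

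The other members differed by less than Id1 in Y541S hormone-sensing cells, and not all in its direction. Id3 was at 188 CPM with giredestrant and 250 CPM with vehicle in Krt14-low cells, a relative log2 ratio of -0.63 (-0.69 to -0.57) whose 1.5-fold call held under 10 of 13 alternatives, and at 226 and 241 CPM in Krt14-high cells (-0.07). Id2 was at 29.8 and 18.6 CPM in Krt14-low cells (relative log2 ratio 0.46, 0.31 to 0.62) and 49.5 and 29.3 CPM in Krt14-high cells (0.77, 0.48 to 1.08), higher with giredestrant in both, as Id1 was. Id4 was at 3.66 and 1.01 CPM in Krt14-low cells (1.64), from 62 and 60 UMIs. It was at 24.2 CPM with giredestrant and 60.2 CPM with vehicle in Krt14-high cells (-1.30), the class in which Acta2 was lower as well. With the call set at 1.5-fold, 3 of 4 members were apart in Krt14-low cells, against 46.8% of all genes, and 3 of 4 in Krt14-high cells, against 48.1%. These shares of all genes are high, so the counts alone do not set the members apart.

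In Y541S secretory cells, Id1 was at 6.27 CPM with giredestrant and 14.3 CPM with vehicle (relative log2 ratio -1.21, -1.56 to -0.87), the opposite direction to the hormone-sensing cells of the same libraries. Id3 was at 17.1 and 39.1 CPM (-1.21, -1.42 to -1.01). These 2 of 4 members were apart, against 34.8% of all genes. Summed hormone-sensing markers in the secretory class were at 363 CPM with giredestrant and 802 CPM with vehicle, and 74 and 137 cells met both rules. With cells of 1 rule only, Id1 was at 5.24 and 15.6 CPM and Id3 at 7.18 and 18.6 CPM. In basal cells none of the 4 members was 1.5-fold apart, against 26.9% of all genes: Id1 was at 38.4 and 33.1 CPM, Id2 at 72.3 and 56.0, Id3 at 199 and 180 and Id4 at 169 and 167.

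**Figure D3:**
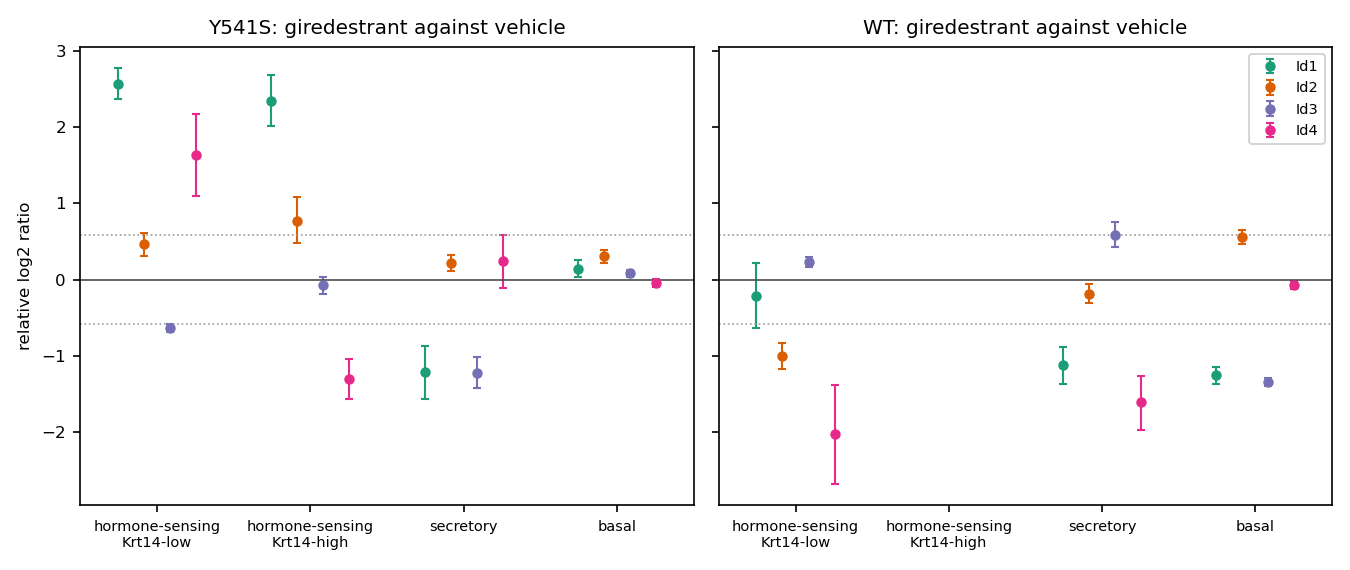
Relative log2 ratio of giredestrant against vehicle for each Id gene in Y541S (left) and WT (right) by cell class, with 95% counting intervals; dotted lines mark 1.5-fold. Id1 is at 2.57 and 2.34 in the Y541S hormone-sensing classes and at -1.21 in Y541S secretory cells, and the WT Krt14-high class, with 23 and 44 cells, is left out.

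In WT glands the same pair of treatments gave its best-counted differences in basal cells. Id1 was at 38.1 CPM with giredestrant (35.5 to 40.8) and 85.5 CPM with vehicle (83.2 to 87.9) in basal cells, a relative log2 ratio of -1.25 (-1.36 to -1.14). Id3 was at 162 and 386 CPM (-1.33, -1.39 to -1.28). Of the 17855 genes tested, 4.11% were at least as far down as Id1 and 3.57% as far down as Id3. After thinning, 10.5% of basal cells held an Id1 UMI with giredestrant and 19.3% with vehicle, and 29.7% and 55.1% held an Id3 UMI. Id2 was at 75.0 and 47.9 CPM (0.56) and Id4 at 207 and 205 CPM (-0.07), so 2 of 4 members were apart, against 29.3% of all genes.

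The WT vehicle library stood apart from the 3 others in basal Id1 and Id3, and it is the reference of both this comparison and that of the genotypes under vehicle. Endothelial markers in basal cells summed to 8.25 CPM with giredestrant and 5.21 CPM with vehicle, with 2 of 5 measured genes higher and 3 lower with giredestrant. Fibroblast markers summed to 299 CPM with giredestrant and 149 CPM with vehicle. Of 14 immediate early and stress genes, 9 were at least 1.5-fold higher and 2 lower with giredestrant than with vehicle in WT basal cells, where 17% of all genes were higher and 12.3% lower. The median over these 14 was 0.68, against 0.07 over all genes tested (relative log2 ratios). Bambi, a decoy receptor of the BMP pathway, was at 66.7 CPM with giredestrant and 29.9 CPM with vehicle (1.07). Of the 9 measured BMP and SMAD inhibitors, 2 were higher and 4 lower. The part of these differences in the Id values was not tested.

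In WT Krt14-low hormone-sensing cells, Id1 was at 3.70 CPM with giredestrant and 3.51 CPM with vehicle (relative log2 ratio -0.21, -0.63 to 0.22), within 1.5-fold. After thinning, with 8 and 7 UMIs left, the ratio was -0.94 and past 1.5-fold. Id3 was at 182 and 126 CPM (0.23), with the median gene itself at a log2 ratio of 0.29. Id2 was lower with giredestrant, at 14.9 CPM, than with vehicle, at 24.3 CPM (-0.998, -1.17 to -0.825). With Id4, which had 36 and 52 UMIs, 2 of 4 members were apart, against 45% of all genes; without the highest doublet scores Id4 lost its call (-0.45). In WT secretory cells Id1 was at 11.0 CPM with giredestrant and 23.1 CPM with vehicle (-1.12), and Id4 at 4.65 and 13.6 CPM (-1.61). Acta2 moved with Id4 there, at 102 and 402 CPM. With cells of 1 rule only, Id4 was at 3.08 and 3.30 CPM and its call was lost (-0.15). Id3 was at 51.6 and 33.0 CPM (0.59), but 131 of the 753 giredestrant cells and 18 of the 751 vehicle cells met the hormone-sensing rule too. Without cells of 2 rules Id3 was at 9.39 and 12.5 CPM, and its relative log2 ratio turned to -0.47, and its call held under 5 of 12 alternatives. As measured on all secretory cells, 3 of 4 members were apart, against 25.6% of all genes.

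The genotypes were compared within each treatment. Under vehicle, Id3 in Krt14-low hormone-sensing cells was at 250 CPM in Y541S and 126 CPM in WT (relative log2 ratio 0.89, 0.83 to 0.95), and 6.72% of 16537 genes were at least as far up. Id1 (4.96 and 3.51 CPM, 0.41) and Id2 (18.6 and 24.3 CPM, -0.48) were within 1.5-fold. With Id4, whose call held under 11 of 13 alternatives, 2 of 4 members were apart, against 23.2% of all genes. In basal cells under vehicle, Id1 was at 33.1 CPM in Y541S and 85.5 CPM in WT (-1.41) and Id3 at 180 and 386 CPM (-1.14), 2 of 4 members against 20% of all genes. These rest on the same WT vehicle library as the drug comparison in WT. In secretory cells Id1 (14.3 and 23.1 CPM, -0.72) and Id4 (6.57 and 13.6 CPM, -1.07) were lower in Y541S, 2 of 4 against 20.1%. The Id1 call held under 9 of 12 alternatives.

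Under giredestrant, Id1 in Krt14-low hormone-sensing cells was at 34.2 CPM in Y541S and 3.70 CPM in WT (relative log2 ratio 3.20, 2.95 to 3.46), and Id2 at 29.8 and 14.9 CPM (0.996, 0.826 to 1.165). Id3 did not stand apart, at 188 and 182 CPM (0.04). With Id4, 3 of 4 members were apart, all higher in Y541S, against 46% of all genes apart in either direction. In secretory cells Id3 was at 17.1 CPM in Y541S and 51.6 CPM in WT (-1.55), Id1 at 6.27 and 11.0 CPM (-0.77) and Id4 at 7.90 and 4.65 CPM (0.81), 3 of 4 against 38.5%. Each of these calls was lost under 1 of 12 alternatives. With cells of 1 rule only, Id3 was at 7.18 CPM in Y541S and 9.39 CPM in WT (-0.35) and Id4 at 3.89 and 3.08 CPM (0.37), and with class thresholds halved Id1 came to -0.28. In basal cells 0 of 4 members were apart, against 33.8% of all genes, with Id1 at 38.4 and 38.1 CPM and Id3 at 199 and 162 CPM.

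Set side by side, the giredestrant differences ran in opposite directions in Y541S and WT, with both counting intervals off 0, for 3 of 4 members in Krt14-low hormone-sensing cells, against 16.2% of all genes. The same held for 2 of 4 in secretory cells, against 24%, and 2 of 4 in basal cells, against 21%. In basal cells these were Id1 and Id3, with 1.5-fold reached in WT and not in Y541S. Their Y541S values, 0.15 and 0.08, changed sign under some alternatives. Counting intervals are narrower for genes with more UMIs, and these shares of all genes were not matched to the members for counts. The 3 members in Krt14-low cells include Id4, from which no change is read in this class. The difference between genotypes was not tested.

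The partners and the upstream pathway of the Id genes were followed in Krt14-low hormone-sensing cells. The E proteins, which Id proteins bind, stayed within 1.5-fold in Y541S glands: Tcf3 was at 78.6 CPM with giredestrant and 56.6 CPM with vehicle (relative log2 ratio 0.25), Tcf4 at 208 and 170 CPM (0.07) and Tcf12 at 593 and 578 CPM (-0.18). In WT glands Tcf3 was 1.5-fold apart, at 63.9 CPM with giredestrant and 26.7 CPM with vehicle (0.97). Of 6 BMP ligands, 5 were measured in Y541S, and all 5 were at least 1.5-fold higher with giredestrant, as 26.5% of all genes were, with a median of 2.84 against 0.11 over all genes. Bmp7, for example, was at 2.54 and 0.422 CPM, from 43 and 25 UMIs. Measured genes had 20 or more UMIs over both libraries. Bmp2 (2.30 and 0.219 CPM) and Bmp6 (1.95 and 0.135 CPM) reached that only through their giredestrant counts. The rule thus let in genes that were high there, so neither the count of ligands nor their median is read as a result. Only Bmp3, named after its values were seen, passed 20 CPM in this class, at 120 and 68.8 CPM (0.59). That is just past 1.5-fold. With TMM scaling the shift of this class was 0.343 instead of the median gene's 0.218, which would bring Bmp3 within. The other measured ligands were at 0.135 to 5.20 CPM. Of the 6 BMP receptors, 3 were higher and none lower, led by the type I receptor Bmpr1b at 674 CPM with giredestrant and 252 CPM with vehicle (1.20). Of the 3 measured SMAD transducers none was apart. Among 7 measured inhibitors of the pathway, 2 were higher and 2 lower. Follistatin (Fst), which binds activins and some BMPs, was at 20.2 CPM with giredestrant and 2.90 CPM with vehicle (2.58), and Bambi at 1.18 and 2.35 CPM (-1.21). In the same libraries Fst was at 687 and 609 CPM in basal cells and at 248 and 244 CPM in Krt14-high cells. The part of basal cell RNA in the Krt14-low Fst values was not tested.

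Id proteins are also known to hold back inhibitors of cyclin-dependent kinases. Of the 5, 4 were at least 1.5-fold higher with giredestrant in Y541S Krt14-low cells and none lower, with a median of 1.15: Cdkn2a was at 69.9 CPM with giredestrant and 12.8 CPM with vehicle (2.23). Tnfsf11, which encodes RANK ligand, was at 264 and 65.9 CPM (1.78), and with its receptor both genes of the RANK pair were higher. Of the 14 immediate early and stress genes 1 was higher (Egr1, 399 and 162 CPM) and 7 lower, against 20.3% of all genes lower, among them Atf3 at 406 and 1126 CPM and Fos at 486 and 1044 CPM. In WT, where 27.7% of all genes were higher and 17.3% lower, the 3 measured BMP ligands were at least 1.5-fold lower with giredestrant, Bmp4 and Bmp7 from 11 to 29 UMIs with intervals that held 0, and 0 of 6 receptors was apart. Of the 5 CDK inhibitors in WT, 3 were higher and 1 lower, with a median of 0.60, and Cdkn2a was at 3.14 CPM with giredestrant and 0.722 CPM with vehicle (1.83), from 140 and 14 UMIs. In WT 1 gene of the RANK pair was higher and 1 lower, and 4 of the 14 immediate early and stress genes were higher and 0 lower. Whether the 2 genotypes differed in these lists was not tested.

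**Figure D4:**
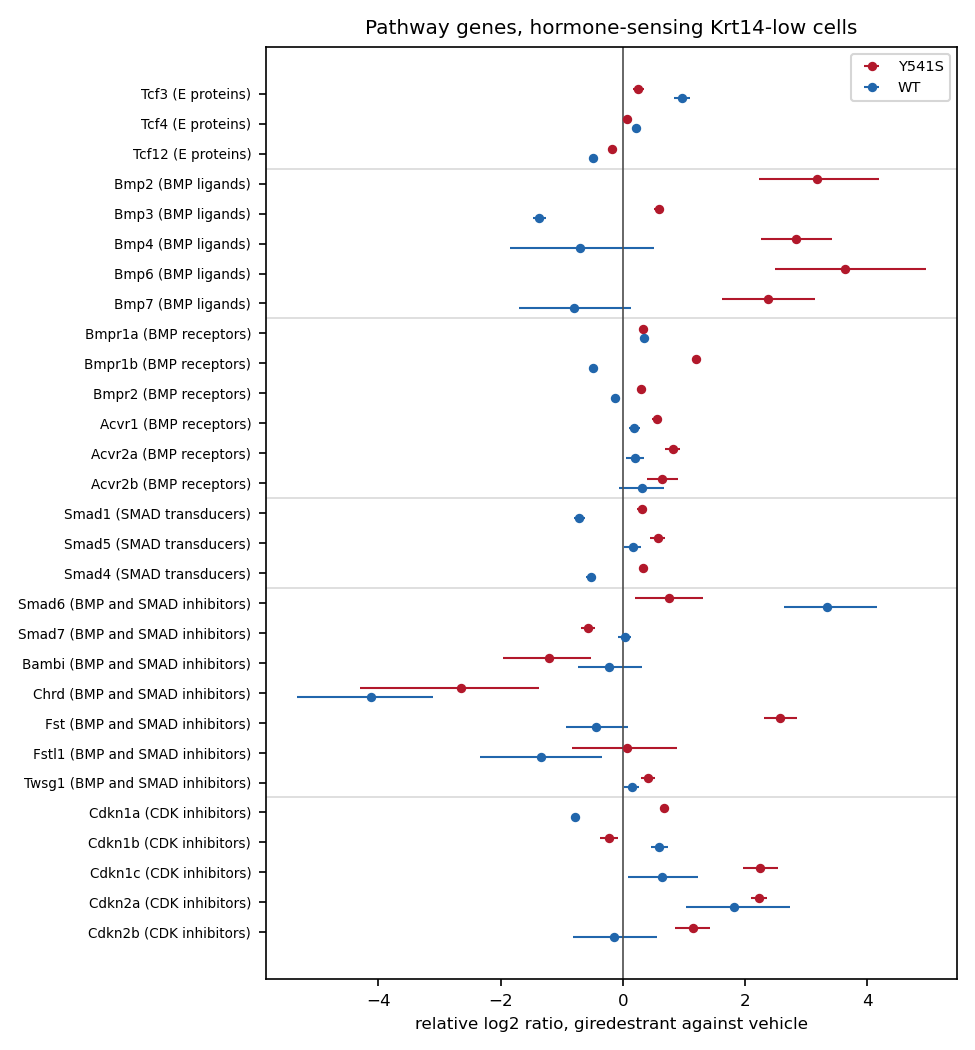
Relative log2 ratio of giredestrant against vehicle in Krt14-low hormone-sensing cells for the genes of 6 lists, with Y541S above WT for each gene and 95% counting intervals; genes under 20 counts over both libraries of a pair have no point. The 5 BMP ligands with a Y541S point are all above 0, Bmp2 and Bmp6 having reached 20 counts only through the giredestrant library. The 3 E proteins lie between -0.18 and 0.25 in Y541S.

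Within a class the counted Id UMIs were spread unevenly over cells. The tenth of basal cells with the most Id1 UMIs held 80.8%, 76.6%, 63.5% and 56.1% of all Id1 UMIs in the Y541S giredestrant, Y541S vehicle, WT giredestrant and WT vehicle libraries, against 49.97%, 49.0%, 44.7% and 36.6% for Id3. In Y541S giredestrant Krt14-low cells that share was 78.9% for Id1, with at most 12 UMIs in 1 cell. Such a share depends on how many cells hold a UMI of the gene at all. Before thinning, 15.1%, 20.7%, 31.0% and 39.2% of basal cells held an Id1 UMI, in the same order of libraries. For Id3 it was 49.5%, 57.7%, 65.9% and 76.8%. Genes and libraries were not matched for counts here, so no difference in spread between them is read from these shares. Id1 and Id3 were found together: among thinned basal cells with an Id1 UMI, 60.8%, 56.1%, 50.9% and 76.1% held an Id3 UMI, against 34.3%, 28.8%, 27.2% and 50.04% of those without. The share was higher in Id1 cells of all 4 libraries. This was not particular to that pair. Of basal cells with an Id2 UMI, 39.6%, 43.5%, 43.6% and 61.8% held Id3, against 36.0%, 29.0%, 27.1% and 54.0% of those without. Id2 was likewise found more often in Id1 cells of all 4 libraries. Id4 was found in 32.2%, 30.6%, 38.7% and 37.7% of Id1 cells, against 36.4%, 34.0%, 38.9% and 41.4% of those without. For Id3 cells it was 32.55%, 32.7%, 33.6% and 40.5%, against 38.0%, 34.2%, 41.2% and 40.9%. The share was thus lower in all 4 libraries, but nearly equal for Id1 in WT giredestrant and for Id3 in WT vehicle. Id4 had no common direction in Id2 cells. Such shares were not computed for other genes. Over the 16 sums of class and library, Pearson's r of log2(CPM + 1) was 0.39 between Id1 and Id3 and 0.76 between Id1 and Id4, given as a description, since sums of 1 library share its depth and cells.

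Basal cells in cycle, with 3 or more UMIs of Mki67, Top2a, Cdk1 and Ccnb1 per 10000, held less Id3 and Id1 and more Id4 than the other basal cells. Id3 was at 131, 91.6, 33.0 and 142 CPM in the 188, 137, 27 and 140 cycling basal cells of the Y541S giredestrant, Y541S vehicle, WT giredestrant and WT vehicle libraries, against 205, 187, 168 and 402 CPM in the others. Id1 was at 27.8, 21.1, 13.0 and 46.4 CPM in cycling and 39.3, 34.1, 39.2 and 88.1 CPM in other cells. Id4 was at 193, 200, 397 and 237 CPM in cycling and 167, 164, 199 and 203 CPM in other cells. The direction was the same in 4 of 4 libraries for each of these genes, and Id2 had no common direction. With 4 libraries no test beyond this count was made. The share of all genes with a common direction was not counted, so the agreement alone does not set the members apart. Id1 was also lower in cycling secretory cells of all 4 libraries. It was at 5.48, 8.64, 8.41 and 17.5 CPM there, against 6.48, 15.8, 11.6 and 24.2 CPM in other secretory cells. In Krt14-low cells of the 2 Y541S libraries it was higher in cycling cells, at 68.6 and 8.08 CPM against 32.3 and 4.68 CPM. Cycling Krt14-low cells in WT held only 10 and 4 Id1 UMIs.

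**Figure D5:**
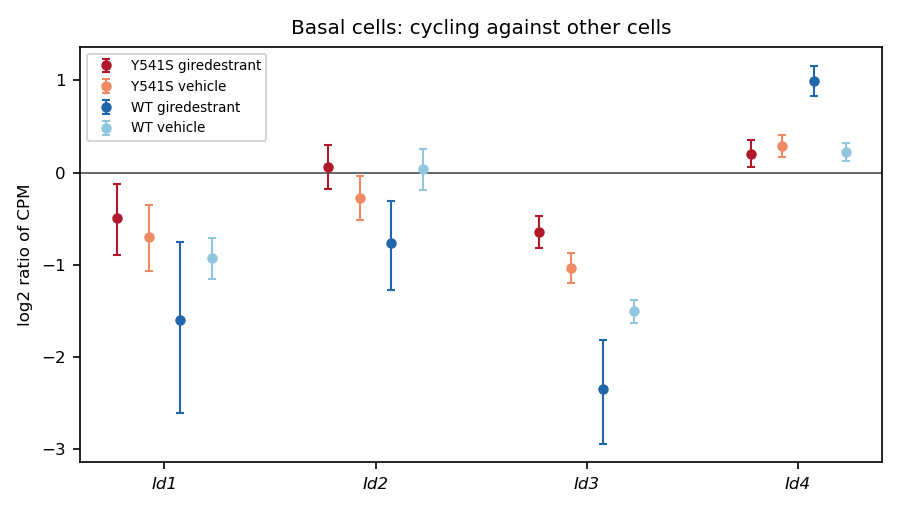
Log2 ratio of CPM in cycling against other basal cells for each Id gene, with 1 point per library and 95% counting intervals. Id1 and Id3 lie below 0 and Id4 above 0 in all 4 libraries.

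The genes most like each member over the 16 sums were sought among 8889 genes by Pearson's r of log2(CPM + 1). For Id4 they were Gm13052, Tenm3, Hdgfl3, Sparc and Aebp1, with r of 0.99 or more. For Id1 they were Lama3, a laminin chain of the basement membrane, Abcb1b, Lgals7, Chl1 and Axl, with r from 0.92 to 0.94. For Id2 they were Hacd2, Rab30, Tle4, Grsf1 and Nr3c1, the glucocorticoid receptor, with r from 0.93 to 0.96. For Id3 they were Trim35, Adarb1, H2afy2, Marcks and Wnt5a, with r from 0.92 to 0.94.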

How the data were processed

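The deposited values are raw UMI counts of genes in single barcodes, which the authors made with Cell Ranger 6.0.1 per the file headers, on GRCm38 per the submitters' processing notes. The annotation release is not given in the sources used here. The deposited barcode and feature lists hold text only. Of 52636 gene identifiers, 52403 were found in the reference annotation. Libraries held 70781982 (Y541S giredestrant), 132660456 (Y541S vehicle), 84215237 (WT giredestrant) and 98223195 (WT vehicle) UMIs.

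UMIs were summed per library and class. Ratios carry exact conditional binomial 95% intervals, levels Poisson and shares Clopper-Pearson intervals, for genes with 20 or more counts. The median gene was taken over genes at 20 or more CPM, and a difference was called at 1.5-fold, in classes of 50 or more cells. Class sums were tested with edgeR 4.0.16 (quasi-likelihood, TMM, filterByExpr, Benjamini-Hochberg, adjusted p under 0.05) in R 4.3.3, with DESeq2 1.42.0 as an alternative. On simulated counts that step recovered 93% of 4-fold and 59% of 2-fold changes between Krt14-low hormone-sensing and basal sums (17348 genes). Between Krt14-high and Krt14-low sums it recovered 88% and 50%. The simulation used a fixed dispersion and no differences between conditions, so it does not give the recovery on these libraries. Doublets were not removed in the main analysis; an alternative left out the highest Scrublet scores (Scanpy 1.11.5, 0.8% per 1000 cells), because the automatic threshold marked only 2 cells of WT vehicle. Sums used Python 3.11.15 with NumPy 2.4.6 and SciPy 1.17.1.

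The members, lists and tests were chosen with earlier results of these data known. The 4 members were named in every class. List genes were named at 20 or more CPM in some class and 2-fold or more, with the E proteins named always. Bmp3, and in WT Bmp4 and Bmp7, were named outside that rule. The 5 genes most alike were named for each member. No promoter of Id1 is shown here.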

Additional observations from a re-analysis of the deposited data

Results flagged for a closer look

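In 7 cases the difference between giredestrant and vehicle ran in opposite directions in the 2 genotypes, with both counting intervals off 0. The difference was not tested in any of them, since each side is 1 library against 1 library. Over all genes such opposite directions were found for 16.2% in Krt14-low hormone-sensing cells, 24% in secretory cells and 21% in basal cells. These shares were not matched to the members for counts, on which the width of an interval depends.

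In Krt14-low hormone-sensing cells, the Y541S relative log2 ratio minus the WT one was 1.46 for Id2 (0.46 in Y541S, -0.998 in WT), -0.86 for Id3 (-0.63 and 0.23) and 3.66 for Id4 (1.64 and -2.02), the last from 36 to 62 UMIs per library. In secretory cells it was 0.40 for Id2 (0.22 and -0.18) and -1.81 for Id3 (-1.21 and 0.59), and the WT Id3 value turned to -0.47 without cells of 2 class rules. The WT Id2 value changed sign as well, ranging from -0.264 to 0.148 over the alternatives. In basal cells it was 1.40 for Id1 (0.15 and -1.25) and 1.42 for Id3 (0.08 and -1.33), where WT vehicle was the library that stood apart. The Y541S basal values were near 0 and changed sign under alternatives. They ranged from -0.270 to 0.212 for Id1 and from -0.0657 to 0.147 for Id3. Id1 in Krt14-low hormone-sensing cells differed by 2.78 (2.33 to 3.24) between genotypes without opposite directions, since the WT interval included 0.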

How the results depend on the processing

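No paired analysis was possible because each group is 1 library and the labels carry no shared replicate numbers. This holds for comparisons between conditions; the class tests pair classes within a library through the library block. Counts of member and class pairs at least 1.5-fold apart stayed within 1.5 times the reported ones under all 12 alternatives: 6 to 8 in WT giredestrant, 6 to 10 in Y541S giredestrant, 5 to 7 for genotype under vehicle and 4 to 6 under giredestrant. Id1 in Y541S Krt14-low cells ranged from 2.35 to 3.02. Id3 in WT secretory cells turned from 0.59 to -0.47 with cells of 1 class rule only and to -0.0226 after thinning. In the class tests, Id3 in Krt14-low hormone-sensing against basal cells ranged from -0.610 to 0.0582 with 1 library left out, the sign turning without WT vehicle. Id2 in secretory against basal cells ranged from -0.155 to 0.0460, turning without WT giredestrant. Neither had passed the test. Genes called with 1 library left out numbered 6085 to 9449 (Krt14-low hormone-sensing against basal, 9569 in all 4), 2716 to 6032 (against secretory, 6482) and 716 to 2212 (Krt14-high against Krt14-low, 1879). The lowest of each came without Y541S vehicle, and the third fell to 862 without WT vehicle. After thinning the second count was 4257. The third was 2891 with no filter on low counts, 585 with no library block, 579 with cells of 1 rule only, and 875 after thinning; the cause was not tested, beyond the fewer cells of the last 2. Without the block Id1 in that comparison (2.19) lost its call. Id4 in Krt14-low hormone-sensing against secretory cells (-1.06) lost its call with cells of 1 rule only. Depth limits Id4 and, outside the Y541S giredestrant library, Id1 in Krt14-low cells, where each rests on 36 to 294 UMIs per library.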
